A study of Oryctolagus cuniculus with 8 samples.

Results

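The genes described here encode RNA splicing and processing factors, measured in the forebrain of preterm rabbit pups given dexamethasone or saline. Their probes were chosen by the array's own description, which had to name a heterogeneous nuclear ribonucleoprotein (hnRNP), a small nuclear ribonucleoprotein (snRNP), a splicing factor, a DEAD or DEAH box helicase, a pre-mRNA processing factor, an LSM homolog, an exosome component, a cleavage and polyadenylation factor or an RNA binding motif (RBM) protein. The rule found 267 of the 43603 probes on the array, for 113 of its 23414 genes or transcripts, and 239 of these probes carried a gene symbol. Another 5 probes held the letters PRP or LSM but were not described as a pre-mRNA processing factor or LSM homolog, and were left out. Among them were probes for PRP4K, an LSM domain protein and prion protein. New Zealand rabbit pups had been delivered by Caesarean section at day 29 of a gestation of 32 days and were killed at postnatal day 14. The 4 dexamethasone samples came from pups given this synthetic glucocorticoid into the muscle in 2 daily doses of 0.25 mg/kg over no more than 5 days. The 4 saline samples came from preterm pups that received the vehicle, and all pups of both groups were fed by gavage. The samples are described as biological replicates, and neither litter nor sex is given in the sources used here.

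Splicing removes introns from a newly made transcript. The work is done by the spliceosome, which is built from small nuclear RNAs bound by snRNP proteins and is driven through its steps by DEAD and DEAH box helicases, while hnRNP and serine/arginine-rich proteins on the transcript set which exons are kept. The 3′ end is then made by cleavage and polyadenylation factors, and faulty or spent RNA is degraded by the exosome or, in the cytoplasm, after capture of its shortened tail by the LSM ring. Brain tissue uses alternative splicing heavily, and many of these proteins are abundant in neurons.

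RNA was read on 4 Agilent 2-colour arrays, and both dyes of an array, Cy3 and Cy5, held a sample of the same group. Saline samples lay on slide 1 and dexamethasone samples on slide 2, read in separate scans, so for every value below slide and treatment cannot be told apart. The share of spots well above background was 39.1% to 59.7% in saline and 47.7% to 64.3% with dexamethasone, and outlier spots numbered 932 to 3022 in saline and 197 to 509 with dexamethasone. Levels are log2 normalised intensities, and a difference is dexamethasone minus saline on that log2 scale. The number of arrays limits the precision, with a median SE of 0.13 over all 11262 genes or transcripts tested. Bulk tissue was measured, so fewer cells of a type and less RNA per cell cannot be told apart. Forebrain markers were present, among them SYT1 of neurons at a mean level of 11.77 in saline and the myelin junction gene GJB1 at 14.90.

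Transcripts of most RNA processing factors were detected in every sample, and none of them was called different between dexamethasone and saline. Of the 113 genes, 97 could be tested, and 0 passed an adjusted p of 0.05 (limma, Benjamini-Hochberg), against 0.0622% of all genes tested. At an unadjusted p under 0.05, 11 of the 97 genes differed, 2 higher and 9 lower with dexamethasone. That is 11.3% of the members tested, against 13.7% of all genes. By direction, 2.06% of members were higher against 6.31% of all genes, and 9.28% were lower against 7.4% of all genes. The members' median log2 difference was 0.02, the same to 2 decimals as the 0.02 of all genes, and 51 members (52.6%, against 54.3% of all genes) lay above 0 and 46 below. In 12 members, 12.4%, the 2 groups' values did not overlap, against 13.3% of all genes. Under most other settings more members were still lower than higher, but under some this split by direction turned. With the deposited table, where the median of all genes was 0.14, 10 of 108 members were higher and 1 lower (9.26% and 0.926%, against 9.41% and 4.27% of all genes). Without dexamethasone replicate 4, 8 of 96 were higher and 3 lower (8.33% and 3.12%, against 4.9% and 5.38%). No test of these shares was made. Here and below, a gene is given by its brightest probe with enough values, unless another probe is named.

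The 11 genes were SNRPA1, SFPQ, PNISR, SREK1, RBM6, EXOSC7, DDX46, DDX27 and DHX29, all lower with dexamethasone, and DHX36 and a transcript described as RBM4B-like (LOC100355015), both higher. Without the Aquantile step the median of all genes shifted by -0.61. With that shift removed, values lay above 0 for SNRPA1, SFPQ, PNISR, DDX46, DHX29 and RBM6. With scaling to the 75th percentile, and its shift of -0.27 removed, they did so for the same genes except SFPQ. These signs are relative to all genes and need not be those of the fitted differences. Under percentile scaling, with no shift removed, the 5631 genes brighter than the median level had a median of 0.31 and the dimmer genes -0.84. Of the 97 members, 73 were among the brighter genes, where the members' median was 0.34. Without Aquantile, and with no shift removed, the brighter genes had a median of -0.035, the dimmer genes -1.19 and the brighter members -0.013. Percentile scaling called 6 members, all lower, or 6.19% of members against 18.5% of all genes. Leaving out array 1, which held saline samples 1 and 2, called 16 of 90 members, 10 higher and 6 lower, or 17.8% against 20.4% of all genes, with an estimated correlation within arrays of -0.30 in place of 0.24.

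**Figure D1:**
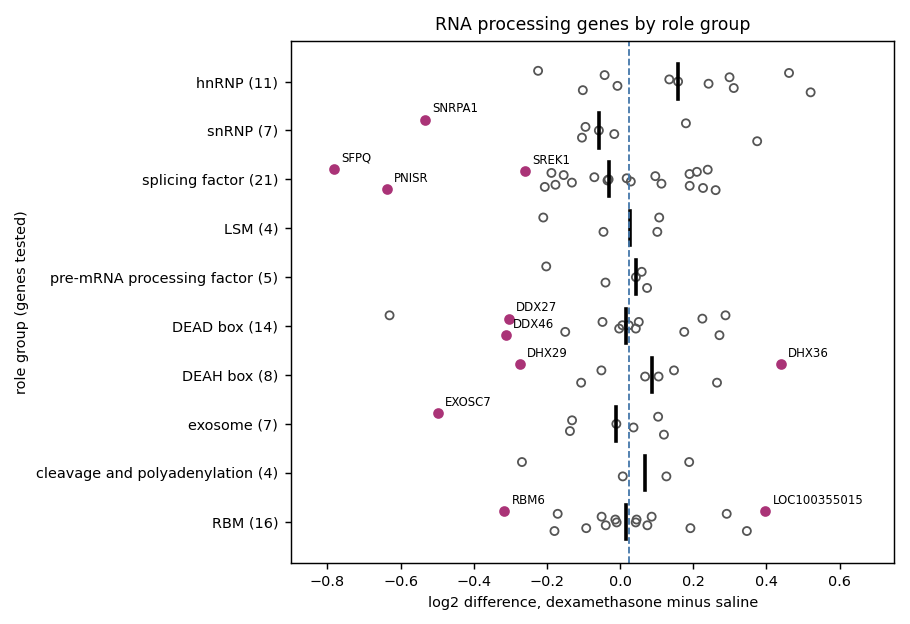
Each point is 1 of the 97 tested RNA processing genes, placed by its log2 difference (dexamethasone minus saline, x axis) in its role group (y axis, with the number of genes tested), filled and named where the unadjusted p was under 0.05. Black bars are the group medians, from -0.06 for snRNP genes to 0.16 for hnRNP genes, and the dashed line is the median of all genes tested, 0.02.

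The probes for these genes were bright. Of the 267 probes, 96.3% passed the filter on dim probes, with a signal well above background in 4 samples or more, against 53.1% of all probes on the array and 66.3% of all probes with a gene symbol. The median level of the probes kept was 10.45, against 9.62 over all probes kept, while the median GC content was 43.3% in both. Of the 97 tested genes, 83 were well above background in all 8 samples. Spread between samples was close to that of all genes, with a median SD in saline of 0.16 for members and 0.15 for all genes, and with dexamethasone of 0.14 and 0.16.

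Among the snRNP proteins, SNRPA1, the U2 snRNP protein that binds the U2 small nuclear RNA together with SNRPB2, had the smallest p of all members. Its probes are shown because all 4 read nearly the same stretch of the transcript. The first and the last are printed, with the 41 bases they share in capitals. They lie on chromosome 17 of oryCun2, plus strand, and each spans 445 bases of the genome, more than its own 60.

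SNRPA1 at chr17:84711290-84711734: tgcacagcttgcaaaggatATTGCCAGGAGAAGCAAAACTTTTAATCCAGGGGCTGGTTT
SNRPA1 at chr17:84711309-84711753: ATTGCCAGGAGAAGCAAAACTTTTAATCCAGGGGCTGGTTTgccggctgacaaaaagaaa

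On the second of these probes SNRPA1 read 11.32, 11.03, 11.25 and 11.22 in saline samples 1 to 4, and 10.61, 10.75, 10.76 and 10.56 in dexamethasone samples 1 to 4. All 4 dexamethasone samples lay below all 4 saline samples. The means were 11.20 ± 0.13 for saline (SD, n = 4) against 10.67 ± 0.10 for dexamethasone (SD, n = 4), a log2 difference of -0.53, with a standard error of 0.11 and a limma adjusted p of 0.196 (Benjamini-Hochberg). The first probe, shifted by 19 bases, gave -0.44, and a probe shifted by 1 base, with 7 values, gave -0.54. The remaining probe had only 2 saline values. With outlier spots kept, that brighter probe stood for the gene and gave -0.27.

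The other 6 tested snRNP genes did not pass an unadjusted p of 0.05. SNRPD3, a core Sm protein of the ring that all spliceosomal snRNPs except U6 share, read 12.06, 11.19 and 11.65 in saline samples 1, 3 and 4, and 12.24, 12.06, 11.93 and 11.92 in dexamethasone samples 1 to 4. Its saline samples spread widely, and the difference of 0.37 was 0.18 without saline 3 and 0.62 without saline 1. Another SNRPD3 probe, with all 8 values, gave -0.02. SNRPB2, the partner of SNRPA1, had a difference of -0.02, and SNRPG, also of the Sm ring, one of -0.10. SNRPC, a U1 protein, and a second locus described as SNRPC (LOC100339337) gave -0.06 and -0.09, and near-identical copies may share signal on an array. The snRNP median was -0.06 and, with any shift of all genes removed, lay above 0 under 3 of 29 alternatives, percentile scaling among them.

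The hnRNP genes had the highest median of the 10 role groups, 0.16 over 11 genes, with 7 above 0, and 0 of them past an unadjusted p of 0.05. That median stayed above 0 under all 29 alternatives, between 0.08 and 0.80, with any shift of all genes removed. Under percentile scaling, before that removal, brighter genes as a whole had a median of 0.31 and dimmer genes one of -0.84. HNRNPK, a poly(C)-binding protein that acts in splicing, transcription and translation, read 11.83, 11.70, 11.22 and 11.05 in saline samples 1 to 4, and 11.87, 12.00, 12.28 and 11.50 in dexamethasone samples 1 to 4. Dexamethasone 4 lay below saline 1 and 2, so the groups overlap, and the difference was 0.46, with a standard error of 0.23 and a limma adjusted p of 0.392 (Benjamini-Hochberg). Without array 2 it was 0.15, and without array 1 it was 0.77. The 4 fitted HNRNPK probes all lay above 0, from 0.25 to 0.61. Some of them are placed on chromosome 8 and 1 on chromosome 14, so copies of the gene may share the signal.

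HNRNPH3, which binds G-rich stretches of RNA, had the largest member difference above 0, and its groups did not overlap on the values kept. It read 9.91, 10.81 and 10.85 in saline samples 1, 2 and 3, and 11.13, 11.10, 11.15 and 11.01 in dexamethasone samples 1 to 4. The value of saline 4 was left out as an outlier spot. Saline 1 lay far below the other saline samples, and without it the difference was 0.27. With saline 1 included and saline 4 left out it was 0.52, with a standard error of 0.27 and a limma adjusted p of 0.407 (Benjamini-Hochberg). With outlier spots kept, which brings saline 4 back, the same probe gave 0.33. HNRNPU, a nuclear matrix protein, was 0.31, HNRNPA0, a binder of AU-rich elements, was 0.30, and HNRNPLL, a regulator of alternative splicing best known in lymphocytes, was 0.24, each with overlapping groups. HNRNPD, which binds AU-rich elements and speeds decay, was nearer 0 at 0.16, HNRNPH1, like HNRNPH3 a binder of G-rich RNA, was -0.04, and a transcript described as HNRNPD-like (LOC100343315) was -0.22.

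**Figure D2:**
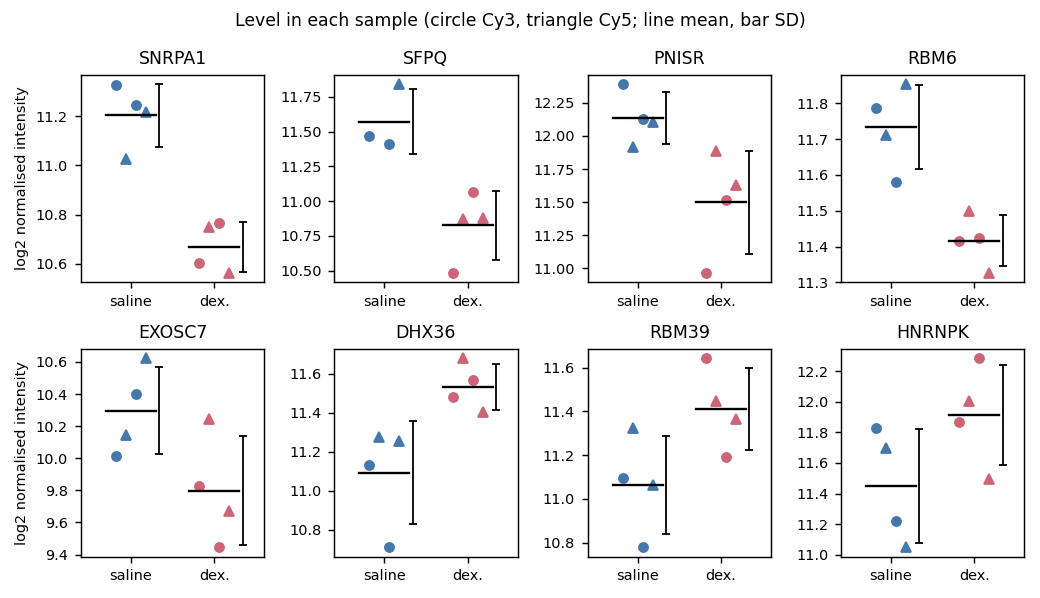
Each panel shows 1 gene, with log2 normalised intensity on the y axis (scales differ between panels) for the saline and dexamethasone samples, circles in Cy3 and triangles in Cy5, lines at the means and bars of 1 SD. The groups do not overlap for SNRPA1, SFPQ, PNISR, RBM6 and DHX36, and overlap for EXOSC7, RBM39 and HNRNPK.

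HNRNPL, which represses or activates exons through CA repeats, shows how far probes of almost the same sequence could differ. Its 5 probes step along the transcript by 1 base each on chromosome 5 of oryCun2, plus strand, and share the 56 bases in capitals.

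HNRNPL at chr5:935245-935794: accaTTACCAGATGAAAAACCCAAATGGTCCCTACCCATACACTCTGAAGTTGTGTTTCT
HNRNPL at chr5:935246-935795: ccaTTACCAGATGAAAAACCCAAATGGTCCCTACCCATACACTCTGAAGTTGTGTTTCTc
HNRNPL at chr5:935247-935796: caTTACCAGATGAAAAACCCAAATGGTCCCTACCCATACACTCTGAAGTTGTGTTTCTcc
HNRNPL at chr5:935248-935797: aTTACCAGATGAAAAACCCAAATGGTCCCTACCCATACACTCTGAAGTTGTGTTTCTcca
HNRNPL at chr5:935249-935798: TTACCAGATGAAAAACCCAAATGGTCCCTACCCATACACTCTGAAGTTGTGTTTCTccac

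In the order shown, the log2 differences were -0.30, -0.06, -0.19, -0.01 and -0.69. The last probe read 12.19, 11.44, 11.22 and 11.30 in saline samples 1 to 4, and 10.45, 11.04, 11.04 and 10.85 in dexamethasone samples 1 to 4. Its neighbour, shifted by 1 base, read 11.38, 11.29, 11.21 and 11.22 in saline samples 1 to 4, and 10.98, 11.48, 11.38 and 11.22 in dexamethasone samples 1 to 4. On the last probe every dexamethasone sample lay below every saline sample, and on its neighbour the groups overlapped. HNRNPL was represented by the neighbour, at -0.01. HNRNPC, an abundant binder of uridine runs in introns, likewise ranged over its 7 fitted probes from -0.21 to 0.44, with 1 probe past an unadjusted p of 0.05, and the probe that stood for it gave -0.10.

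Among the splicing factors, 21 genes were tested, with a median of -0.03. At an unadjusted p under 0.05, 3 were lower (14.3%, against 7.4% of all genes) and 0 higher (against 6.31%). SFPQ, a nuclear protein of paraspeckles that in neurons is needed for long transcripts and for axons, had the largest member difference below 0. Its single probe, with no coordinates in the array's annotation, reads this stretch.

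SFPQ: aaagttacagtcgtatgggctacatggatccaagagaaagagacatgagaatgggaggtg

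SFPQ read 11.47, 11.41 and 11.84 in saline samples 1, 3 and 4, and 10.48, 10.87, 11.06 and 10.88 in dexamethasone samples 1 to 4. Every dexamethasone sample lay below every saline sample that had a value. The difference was -0.78, with a standard error of 0.18 and a limma adjusted p of 0.24 (Benjamini-Hochberg), 1.72-fold.

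PNISR, a serine/arginine-rich nuclear speckle protein, was read by 3 adjoining probes on chromosome 12 of oryCun2, minus strand, shown because they cover adjoining stretches and had the same sign.

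PNISR at chr12:87060382-87060441: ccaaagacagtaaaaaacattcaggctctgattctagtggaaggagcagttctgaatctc
PNISR at chr12:87060322-87060381: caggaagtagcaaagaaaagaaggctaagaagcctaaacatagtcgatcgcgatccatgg
PNISR at chr12:87060262-87060321: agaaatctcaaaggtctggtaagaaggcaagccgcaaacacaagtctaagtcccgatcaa

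In the order shown they gave -0.22, -0.39 and -0.64. The last, the brightest, read 12.39, 11.92, 12.13 and 12.11 in saline samples 1 to 4, and 10.96, 11.88, 11.52 and 11.63 in dexamethasone samples 1 to 4. Dexamethasone 1 was the lowest by a margin and dexamethasone 2 lay just under the lowest saline sample. The difference was -0.64, with a standard error of 0.24 and a limma adjusted p of 0.347 (Benjamini-Hochberg). SREK1, a splicing regulator of the same serine/arginine-rich kind, read 9.12, 9.04, 9.10 and 9.09 in saline samples 1 to 4, and 8.89, 8.83, 8.69 and 8.91 in dexamethasone samples 1 to 4. Its groups did not overlap, the difference was -0.26, with a standard error of 0.10 and a limma adjusted p of 0.347 (Benjamini-Hochberg), and its second probe gave -0.22.

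Subunits of SF3A and SF3B, the parts of the U2 snRNP that recognise the branch point, did not move as a block. SF3B3 was 0.24, SF3B2 0.21, SF3A3 0.19 and SF3B1, the largest subunit and a known cancer gene, 0.10, while SF3B4 was -0.19 and SF3B5 -0.13. None of these 6 passed an unadjusted p of 0.05, although the groups of SF3B5 did not overlap. The second-step factor SLU7 was 0.23 and SYF2, of the complex around PRP19, 0.26, against -0.18 for ISY1 of the same complex. SFSWAP, which regulates its own splicing, was below 0 on all 5 probes, from -0.57 to -0.0024.

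LSM and pre-mRNA processing factor genes showed the narrowest spread. LSM5 and LSM2, parts of the ring on U6 small nuclear RNA, were -0.21 and -0.05, and LSM1, of the cytoplasmic decay ring, 0.10. LSM5 read 9.74, 9.66, 9.66 and 9.61 in saline samples 1 to 4, and 9.33, 9.60, 9.39 and 9.50 in dexamethasone samples 1 to 4. Its dexamethasone samples all lay below its saline samples, by a small margin, with an adjusted p of 0.388 (limma, Benjamini-Hochberg), and its 5 probes ranged from -0.25 to 0.08. The tri-snRNP proteins PRPF3 and PRPF4 were -0.04 and 0.04, PRPF38A, needed for activation of the spliceosome, 0.07, and PRPF39, associated with the U1 snRNP, 0.06. A transcript described only as PRP19 (ENSOCUT00000015695) was -0.20.

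DEAD box helicases had a median of 0.02 over 14 genes, and 2 were lower at an unadjusted p under 0.05 (14.3%, against 7.4% of all genes), with 0 higher. DDX46, the counterpart of yeast Prp5 that acts when the U2 snRNP binds, read 10.30, 10.07, 10.12 and 10.24 in saline samples 1 to 4, and 10.08, 9.78, 9.90 and 9.72 in dexamethasone samples 1 to 4. Dexamethasone 1 lay just above saline 2, so the groups touch, the difference was -0.31, with a standard error of 0.11 and a limma adjusted p of 0.345 (Benjamini-Hochberg), and its other probe gave -0.17. DDX27, which works in ribosome assembly, read 10.09, 9.72, 9.81 and 9.73 in saline samples 1 to 4, and 9.70, 9.59, 9.67 and 9.18 in dexamethasone samples 1 to 4. Its dexamethasone samples lay below its saline samples, dexamethasone 4 farthest, and the difference was -0.30, with a standard error of 0.13 and a limma adjusted p of 0.362 (Benjamini-Hochberg).

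DDX18, also a ribosome assembly helicase, had the largest difference of the DEAD box genes, -0.63, with a standard error of 0.31 and a limma adjusted p of 0.4 (Benjamini-Hochberg). It read 10.16, 11.39 and 10.87 in saline samples 1, 3 and 4, and 9.92, 10.46, 10.15 and 10.09 in dexamethasone samples 1 to 4. The saline samples spread widely, and on this probe the difference was -0.36 without saline 3 and -0.98 without saline 1. The other DDX18 probe, with all 8 values, gave 0.05. DDX5, a cofactor of transcription and splicing, was 0.04, DDX23, the U5 helicase, 0.18, DDX6, which represses and decaps mRNA, 0.01, and DDX1, which acts in tRNA ligation, 0.23. The 6 fitted probes of DDX10, of ribosome assembly, all lay above 0, from 0.02 to 0.35.

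DEAH box helicases had a median of 0.09 over 8 genes. It lay above 0 under all 29 alternatives, between 0.03 and 0.59, with any shift of all genes removed. As stated for the hnRNP genes, before that removal brighter genes as a whole had a median of 0.31 under percentile scaling and dimmer genes -0.84. DHX36, which unwinds G-quadruplexes, was the only member with a symbol that was higher at an unadjusted p under 0.05. Its 3 adjoining probes on chromosome 14 of oryCun2, minus strand, are shown because they gave differences of both signs.

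DHX36 at chr14:48507588-48508208: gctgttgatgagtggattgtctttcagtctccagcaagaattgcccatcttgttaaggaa
DHX36 at chr14:48507528-48507587: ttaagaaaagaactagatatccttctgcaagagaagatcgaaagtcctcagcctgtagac
DHX36 at chr14:48507468-48507527: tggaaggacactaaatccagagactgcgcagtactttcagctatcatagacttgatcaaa

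The first probe read 11.13, 11.28, 10.71 and 11.25 in saline samples 1 to 4, and 11.48, 11.68, 11.57 and 11.40 in dexamethasone samples 1 to 4. All dexamethasone samples lay above all saline samples, and the difference was 0.44, with a standard error of 0.15 and a limma adjusted p of 0.326 (Benjamini-Hochberg). The second probe gave -0.29 and the third 0.07, neither past an unadjusted p of 0.05, and the mean of the probes gave 0.07. The first spans 621 bases of the genome, while the others match it without a gap.

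DHX29, which helps the ribosome scan structured leaders, had 2 probes of opposite sign on chromosome 11 of oryCun2, minus strand, both past an unadjusted p of 0.05, and was the only gene among 43 with 2 or more fitted probes of which this was so.

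DHX29 at chr11:71213375-71213434: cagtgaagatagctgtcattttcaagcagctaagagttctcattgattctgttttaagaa
DHX29 at chr11:71211072-71213369: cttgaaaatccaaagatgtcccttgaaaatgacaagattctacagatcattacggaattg

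The first DHX29 probe read 9.70, 9.66, 9.47 and 9.48 in saline samples 1 to 4, and 9.67, 10.21, 9.88 and 9.94 in dexamethasone samples 1 to 4. The second read 10.16, 10.22 and 10.12 in saline samples 1, 2 and 3, and 9.82, 10.06, 9.84 and 9.94 in dexamethasone samples 1 to 4. On the first, dexamethasone 1 fell among the saline samples and the other dexamethasone samples lay above them, a difference of 0.35. On the second, the brighter, all dexamethasone samples lay below the saline samples, a difference of -0.27, with a standard error of 0.10 and a limma adjusted p of 0.347 (Benjamini-Hochberg). DHX15, which takes the spliceosome apart, was -0.11, and DHX16 and DHX38, which drive its catalytic steps, were 0.15 and 0.07.

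All 7 exosome genes were tested, with a median of -0.01. EXOSC7, a subunit of its ring, read 10.02, 10.14, 10.40 and 10.62 in saline samples 1 to 4, and 9.83, 10.25, 9.45 and 9.67 in dexamethasone samples 1 to 4. Dexamethasone 2 lay among the saline samples and the other 3 lay below them. The difference was -0.50, with a standard error of 0.18 and a limma adjusted p of 0.347 (Benjamini-Hochberg). It was -0.28 without array 2 and -0.72 without array 1. The other ring and cap subunits were nearer 0, EXOSC9 at -0.14, EXOSC5 at -0.13, EXOSC8 at 0.04, EXOSC2 at 0.12 and EXOSC3 at 0.10. EXOSC10, a catalytic subunit in the nucleus, was -0.01.

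On the probes that stood for them, 0 of the 4 cleavage and polyadenylation factors passed an unadjusted p of 0.05 in limma, against 13.7% of all genes. CPSF3, the endonuclease that cuts the transcript, was 0.01 on its brightest probe and ranged from -0.37 to 0.33 over 10 probes, of which the highest passed an unadjusted p of 0.05. CPSF2, its catalytically inactive partner, was 0.19 on its only fitted probe. Other CPSF2 probes stood for it when dexamethasone 1 or 2 was left out, at -0.20, and when outlier spots were kept, at 0.39. CPSF6, of the factor that favours distal sites, was -0.27, with -0.04 without saline 4 and -0.44 without dexamethasone 3. Its other, dimmer probe gave -0.30 and passed an unadjusted p of 0.05. CPSF4, which binds the polyadenylation signal, was 0.13.

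RBM proteins had a median of 0.02 over 16 genes, 8 above and 8 below 0. RBM6, a regulator of alternative splicing, read 11.79, 11.71, 11.58 and 11.85 in saline samples 1 to 4, and 11.41, 11.50, 11.43 and 11.33 in dexamethasone samples 1 to 4. All dexamethasone samples lay below all saline samples, and the difference was -0.32, with a standard error of 0.11 and a limma adjusted p of 0.326 (Benjamini-Hochberg). RBM39, a partner of U2AF in splice site choice, read 11.09, 11.32, 10.78 and 11.06 in saline samples 1 to 4, and 11.64, 11.45, 11.19 and 11.36 in dexamethasone samples 1 to 4. Dexamethasone 3 lay below saline 2, so the groups overlapped, and the difference was 0.35, with a standard error of 0.15 and a limma adjusted p of 0.362 (Benjamini-Hochberg). Without array 2 it was 0.20, and without array 1 it was 0.49. With outlier spots kept a brighter probe stood for RBM39 and gave 0.59. The RBM4B-like transcript read 9.46, 9.80, 9.23 and 9.21 in saline samples 1 to 4, and 10.01, 9.92, 9.70 and 9.66 in dexamethasone samples 1 to 4. Only saline 2 reached the range of its dexamethasone samples, and the difference was 0.40, with a standard error of 0.17 and a limma adjusted p of 0.362 (Benjamini-Hochberg). Without array 2 it was 0.19, and without array 1 it was 0.60. RBFOX2, named RBM9 on the array, a splicing regulator of neurons and muscle, was -0.01.

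Probes of the same gene did not always give the same sign. Of 43 genes with 2 or more fitted probes, 20 had probes of 1 sign only, 9 above and 11 below 0, and the median range over the probes of a gene was 0.30. For 10 genes that did not pass an unadjusted p of 0.05, among them SFSWAP, SYF2, LSM5, EXOSC3 and EXOSC8, another probe did. For pairs of member probes shifted by 1 to 5 bases on a transcript, the median gap between their differences was 0.17 over 144 pairs from 19 genes. Pairs at least 60 bases apart, which share no base, had a median gap of 0.15 over 79 pairs. Over all probes on the array the same medians were 0.13 and 0.15. Probes that overlap almost fully thus differed about as much as probes that do not overlap, and about as much as the median SE of a difference.

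**Figure D3:**
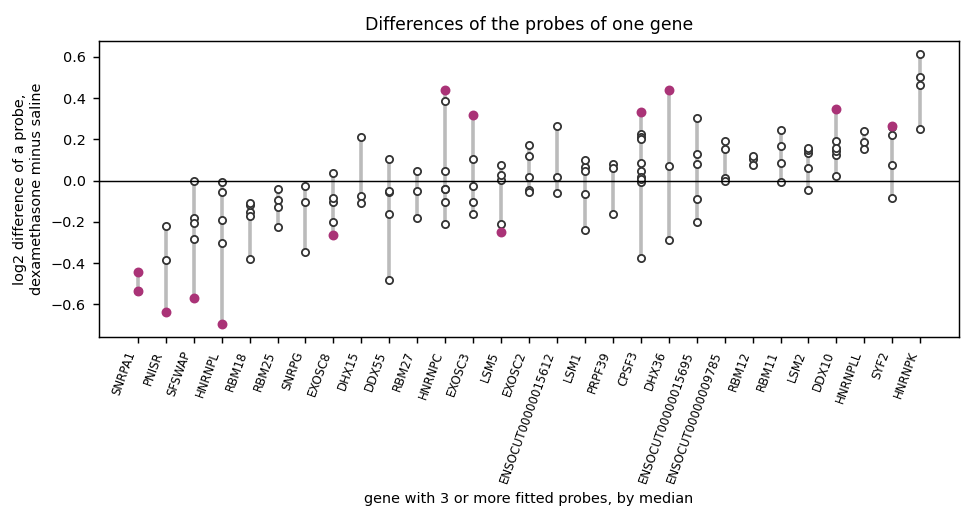
Each column is 1 gene with 3 or more fitted probes, ordered by the median log2 difference of its probes (dexamethasone minus saline, y axis), with filled points at an unadjusted p under 0.05 and grey bars from the lowest to the highest probe. SNRPA1, PNISR and HNRNPL lie below 0 and HNRNPK above 0 on every fitted probe, while DHX36 runs from -0.29 to 0.44.

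Seen sample by sample, the median deviation of all members from their own means lay between -0.07 and 0.02 in saline samples and between -0.07 and 0.05 in dexamethasone samples, so the groups overlapped. The hnRNP genes read higher in dexamethasone 1, 2 and 3, at 0.20, 0.12 and 0.12, than in any saline sample, the highest of which was 0.02. Dexamethasone 4, at -0.16, lay with the lowest saline sample. DEAH box genes showed the same arrangement, with dexamethasone 4 at -0.08 and the other 3 at 0.07 to 0.10, against -0.07 to -0.03 in saline. No role group separated all 4 dexamethasone samples from all 4 saline samples.

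**Figure D4:**
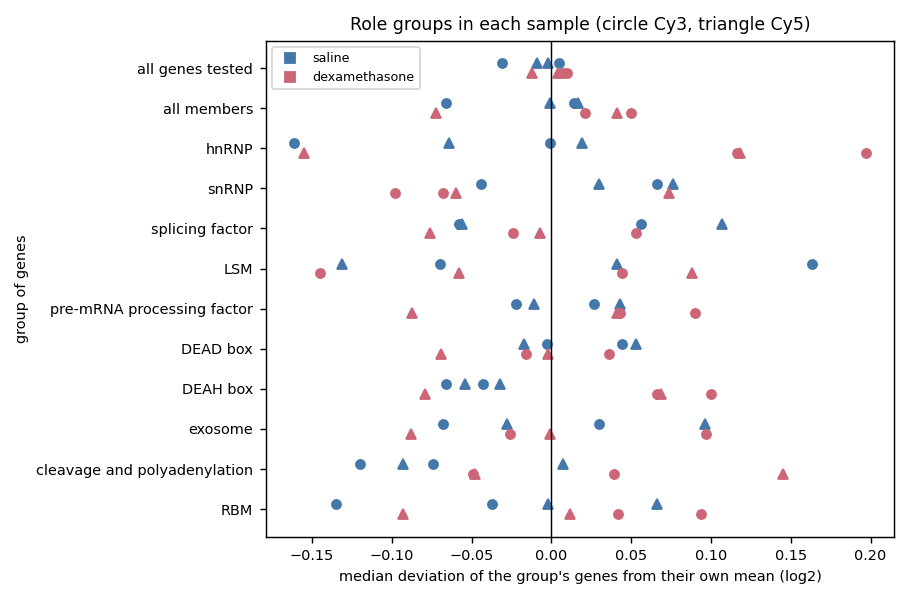
For all genes tested, all RNA processing genes tested and each role group (y axis), points give the median deviation of the genes from their own mean over the groups, on the log2 scale (x axis), in each of the 4 saline and 4 dexamethasone samples, circles in Cy3 and triangles in Cy5. In the hnRNP row 3 dexamethasone samples lie between 0.12 and 0.20 and dexamethasone 4 at -0.16.

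Genes of the same pathways that the description rule did not reach were read from 3 further lists. Of 37 tested spliceosome parts and kinases, 28 lay above 0 (75.7%, against 54.3% of all genes), with a median of 0.06, and 0 were called. At an unadjusted p under 0.05 there was 1 gene (2.7%, against 13.7% of all genes), CLK1, a kinase that phosphorylates serine/arginine-rich proteins, at 0.70 with a standard error of 0.14 and a limma adjusted p of 0.208 (Benjamini-Hochberg), in groups that did not overlap. Of 16 tested tissue-specific splicing regulators, 12 lay above 0, with a median of 0.08. Past an unadjusted p of 0.05 were 4 (25.0%), KHDRBS2 (0.47), MBNL2 (0.44) and FUBP1 (0.43) above 0 and TAF15 (-0.51) below, the smallest adjusted p being 0.24 (limma, Benjamini-Hochberg). Of 31 tested genes of 3′ end formation, export and decay, 20 lay above 0 (64.5%), with a median of 0.09. Past an unadjusted p of 0.05 were 4 (12.9%), the export gene THOC5 (0.32), the exosome nuclease DIS3 (0.29) and the cleavage factor CSTF1 (0.30) above 0, and the export gene THOC2 (-0.40) below.

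Of the lists of markers for other cells, 0 genes were called. Of 16 tested proliferation markers, 15 lay below 0 and 10 of these at an unadjusted p under 0.05 (62.5%, against 7.4% of all genes lower), with a median of -0.31 and a smallest adjusted p of 0.129 (limma, Benjamini-Hochberg). Their median deviation was between 0.12 and 0.24 in saline samples and between -0.15 and -0.13 in dexamethasone samples. Medians were 0.18 for 8 neuron, 0.10 for 7 astrocyte, -0.05 for 8 oligodendrocyte, 0.03 for 4 endothelial and pericyte, -0.15 for 7 microglia and blood, and 0.13 for 9 choroid plexus and meninges markers. For each of these 6 lists the samples' median deviations overlapped between the groups. Some single markers differed more than the median of their list. At an unadjusted p under 0.05 were 4 of the 8 oligodendrocyte markers, MAL (0.51) and QDPR (0.45) above 0 and GJB1 (-0.64) and CLDN11 (-0.46) below. The same held for 1 of 8 neuron, 2 of 7 astrocyte and 1 of 4 endothelial and pericyte markers. It also held for 2 of 7 microglia and blood and 1 of 9 choroid plexus and meninges markers. Over all genes the share was 13.7%, and the neuron and choroid plexus shares, 12.5% and 11.1%, lay below it. Among these markers were ABCB1 of the vessel wall at 0.73 and the neutrophil gene S100A9 at -0.93, with adjusted p of 0.175 and 0.0723 (limma, Benjamini-Hochberg). The part of any of the listed markers in the differences of RNA processing genes was not tested.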

How the data were processed

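Forebrain RNA of 4 saline and 4 dexamethasone pups was read from the deposited scanner intensity of each sample's own dye on 4 arrays. The authors extracted intensities with Agilent Feature Extraction (the submitters' processing notes name version 10.7.3.1, the deposited file headers 11.0.1.1), and the headers give oryCun2 as the build. The flags for outlier and dim spots, given as other values, come from the same deposited files. The deposited signal table, an alternative here, holds background-subtracted median intensity divided by a constant per sample.

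Intensities were corrected with normexp (offset 50), normalised by loess and Aquantile, and taken as log2 per channel, with outlier spots left out. A probe was kept if 4 or more samples were well above background and each group had 3 or more values, and the brightest stood for a gene. Differences were fitted with limma 3.58.1 in R 4.3.3, adjusting for dye and treating the array as a random block (correlation 0.24), adjusted by Benjamini-Hochberg over 11262 genes. Symbols came from the array and from RefSeq names (assembly mOryCun1.1), with 162 member probes matched by accession and 87 by gene ID. Tables and figures were made with Python 3.11.15. The fit was tested on simulated data.

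The members, lists and rules were chosen with earlier results of these data known. Printed genes were, in each role group, up to 4 with the smallest p, those the naming rule lists, and every gene at an unadjusted p under 0.05; others were named after their values were seen. Alternatives covered background correction, scaling, filters, probe choice, model terms, the deposited table, and each sample or array left out. Choosing the probe before the rule on missing values was added after seeing the data.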

Additional observations from a re-analysis of the deposited data

How the results depend on the processing

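Over 29 alternatives, the count of members called stayed at 0 except for 6 with scaling to the 75th percentile and 0 to 16 with a sample or array left out. All genes called numbered 7, against 14 with processed signals, 0 without Aquantile, 2086 with percentile scaling, 3 with probes above background in all 8 samples, 2 without a filter on dim probes, 11 with the mean of a gene's probes, 23 without the array block, 18 without the dye term and 0 to 2066 with a sample or array left out. Members at an unadjusted p under 0.05 numbered 11 of 97 (11.3%, against 13.7% of all genes). They numbered 21 of 97 with percentile scaling (21.6% against 37.9%), 24 of 211 probes with 1 feature per probe (11.4% against 12.7%), 19 without the array block (19.6% against 19.2%) and 4 to 36 with a sample or array left out, from 4 of 96 without dexamethasone replicate 1 (4.17% against 5.81%) to 36 of 90 without array 1 (40.0% against 37.6%). The members' median of 0.02 became 0.49 without Aquantile, 0.49 with percentile scaling and 0.075 with the deposited table, each after removing that setting's shift of all genes, and -0.02 to 0.06 with a sample or array left out. Those shifts were -0.61, -0.27 and 0.12. Without removing them, the members' median was -0.13 without Aquantile, 0.22 with percentile scaling and 0.19 with the deposited table. Without Aquantile, and with no shift removed, dimmer genes had a median of -1.19, brighter genes -0.035 and the brighter members -0.013. Role groups with a median above 0 numbered 7 of 10, and 3 to 10 with a sample or array left out, 3 without dexamethasone replicate 2.

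Genes at an unadjusted p under 0.05 changed sign in 14 cases. Values without Aquantile and with percentile scaling are given after removing that setting's shift of all genes, -0.61 and -0.27. Their signs are thus relative to all genes and need not be those of the fitted differences. Without Aquantile SNRPA1 was 0.19, SFPQ 0.0058, PNISR 0.23, DDX46 0.091, DHX29 0.14 and RBM6 0.53. With percentile scaling SNRPA1 was 0.19, PNISR 0.23, DDX46 0.091, DHX29 0.14 and RBM6 0.53. DHX29 was 0.13 as the mean of its probes, 0.35 over genes with all 8 values and from -0.31 without saline replicate 2 to 0.45 without array 1, where its other probe was used, as it was over all 8 values. With a sample or array left out, 16 of 47 genes followed changed sign, 12 of them on the same probe, and 1 of these 16 (DHX29) was at an unadjusted p under 0.05. Apart from the scalings and the changes of probe, the cause was not tested.

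Same-numbered samples were not paired, since their correlations were -0.12, -0.14, -0.02 and 0.09. With the replicate block the fit called 1 gene over all and 0 members, with 16 members at an unadjusted p under 0.05 and a member median of 0.01. Precision is limited by 4 arrays, and 14 of 97 tested members were not well above background in all samples.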

Other observations

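Of the 113 genes, 16 were not tested, 5 because no probe was well above background in 4 samples and 11 because outlier spots left too few values on bright probes. Outlier spots took 12.1% of the members' values in saline and 2.43% with dexamethasone, against 8.01% and 1.48% over all probes kept. Except for PRPF6, a tri-snRNP protein, which lacked dexamethasone values, all 11 lacked saline values.

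With outlier spots kept, these 11 genes could be fitted, and 0 were called, with 1 (RBM5) at an unadjusted p under 0.05 (limma, Benjamini-Hochberg). Over all genes that setting called 0.0509% and had 13.5% at an unadjusted p under 0.05. RBM5, a regulator of apoptosis-related splicing, was 0.43 (limma with Benjamini-Hochberg adjusted p = 0.308). SNRPN, the imprinted Sm protein of neurons, was 0.53 with an adjusted p of 0.377 (limma, Benjamini-Hochberg). On the brightest SNRPN probe only saline 2 kept a value, 13.66, against 14.26, 13.36, 13.83 and 13.82 in dexamethasone samples 1 to 4, which lie on both sides of it. A transcript described as hnRNP A1 (LOC100347480) was 0.23, SF3A1 of the U2 snRNP -0.26, SNRPD1 of the Sm ring -0.22, LSM14A of cytoplasmic RNA granules 0.28 and PRPF6 0.01.

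The dim genes included DDX4, a germ cell helicase, well above background in 0 of 8 samples. DDX60 (LOC100345657), an antiviral helicase, had 2 probes. The brighter was well above background in 2 samples, both saline and both on array 1, at 8.89 and 8.55. It read 7.84 in each of the other saline samples and 7.71 to 7.79 with dexamethasone. The other probe was well above background in 0 samples, and read 7.60 and 7.62 in saline samples 1 and 2 and 7.68 in each of the other saline samples.

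Among the 47 genes followed, 0 of 83 groups of 4 samples held a value beyond Dixon's 95% limit, where chance gives about 1 in 20. Outlier spots had been left out before, and groups with a missing value were not checked. The saline samples of HNRNPH3, SNRPD3 and DDX18 were such groups.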
